A study of Mus musculus with 3 samples.

Results

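In all, 10 genes of marrow stroma and osteoblasts were examined among the 16742 genes listed in any of 3 bone marrow RNA-seq libraries: Col1a1, Col1a2, Col3a1, Bglap, Bglap2, Lum, Dcn, Sparc, Cxcl12 and Lepr. They were chosen by name, with their expected counts and FPKM in these libraries already known, to ask whether the lin- control library holds RNA from outside the blood lineages. Their levels and ratios are therefore a description and carry no test. All 10 were listed in control, 8 were listed in TR1 and 8 in TR9, and an unlisted gene was taken as 0.

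The control library was made from lin- cells, which are what remains after cells with mature lineage markers are depleted, of wild-type C57BL/6 marrow. For TR1 and TR9, RNA came from GFP+ marrow cells with the genotype TBLR1-RARa, also on C57BL/6, sorted from the third generation of leukemia mice. Cells of 3 mice went into each library, at a labelled age of 6 to 8 weeks in all groups. TBLR1-RARα (TR) and GFP were carried by one retroviral transcript that was put into lin- cells before transplantation, and the names TR1 and TR9 refer to different primary leukemic mice. The control cells carried no vector and had not been transplanted. Lineage depletion removes cells by their blood markers and leaves any cell that has none, whereas a GFP gate keeps only cells that carry the vector. The way of isolation and the leukemia therefore cannot be told apart in these libraries. Expected counts, the number of reads that RSEM assigned to a gene, summed to between 5129662 and 5571409 per library. The 10 blood cell identity genes, among them the pan-leukocyte gene Ptprc and the progenitor gene Kit, were above 3 counts in every library.

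Marrow stroma is the non-blood part of the marrow. Its reticular cells around the sinusoids secrete CXCL12 and carry the leptin receptor, and they hold stem and progenitor cells in place. Osteoblasts descend from such cells, line the bone surface, and secrete type I collagen together with osteocalcin, which is the product of Bglap and Bglap2 in mice. Lumican, decorin and SPARC are matrix proteins that bind collagen and help to set the form of its fibrils.

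The promoters of Bglap, Col1a2 and Col3a1 are shown because these genes had different patterns. Bglap, an osteocalcin gene, was nearly absent from both TR libraries. Col1a2, a type I collagen chain, was below control to a different extent in each TR library, and Col3a1, a fibrillar collagen, was low in all libraries. Each promoter runs 5′ to 3′ from 250 bases before to 50 bases after the start that RefSeq gives (GRCm38.p6). Bglap lies at chr3:88384417-88384716 on the minus strand, Col1a2 at chr6:4505368-4505667 on the plus strand and Col3a1 at chr1:45311288-45311587 on the plus strand. The GENCODE M21 annotation begins Col1a2 upstream of that stretch, at 4504814, so the Col1a2 motif positions hold only for the RefSeq start. Capitals mark motifs found on either strand. They are TATAAA, the sequence at which many promoters are opened for transcription, and CCAAT, to which the factor NF-Y binds. The last is ACCACA, the core bound by RUNX factors, which include the osteoblast regulator RUNX2.
Bglap: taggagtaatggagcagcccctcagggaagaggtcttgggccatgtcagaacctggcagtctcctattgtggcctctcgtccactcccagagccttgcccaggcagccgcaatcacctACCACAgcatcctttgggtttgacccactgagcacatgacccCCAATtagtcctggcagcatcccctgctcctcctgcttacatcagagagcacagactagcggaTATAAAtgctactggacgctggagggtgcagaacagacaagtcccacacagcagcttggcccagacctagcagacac
Col1a2: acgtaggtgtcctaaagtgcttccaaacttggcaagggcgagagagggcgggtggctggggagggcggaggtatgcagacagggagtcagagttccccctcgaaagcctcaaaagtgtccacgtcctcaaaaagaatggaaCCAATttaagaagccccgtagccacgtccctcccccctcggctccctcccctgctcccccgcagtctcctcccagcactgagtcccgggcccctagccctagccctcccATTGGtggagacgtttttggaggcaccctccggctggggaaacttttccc
Col3a1: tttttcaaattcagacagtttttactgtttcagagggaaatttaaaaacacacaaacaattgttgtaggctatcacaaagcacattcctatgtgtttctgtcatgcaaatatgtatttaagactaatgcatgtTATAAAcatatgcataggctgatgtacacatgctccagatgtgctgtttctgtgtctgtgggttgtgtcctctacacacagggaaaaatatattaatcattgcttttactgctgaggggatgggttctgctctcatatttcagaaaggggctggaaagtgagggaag
Of the 10 genes, 6 had a promoter in the table. The Bglap promoter held all of the motifs, with ACCACA starting at base -132, CCAAT at -90 and TATAAA at -27 from the start. The Col1a2 promoter held CCAAT at base -109 and, on the other strand, at base 1, and the Col3a1 promoter held TATAAA at -117. TATAAA was found in 13.6% of all 32851 promoters of this length, CCAAT in 37.4% and ACCACA in 16.8%.

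In control, type I collagen and osteocalcin were among the abundant transcripts. The 10 genes together made up 2926 ppm of the expected counts in control (95% exact interval 2881 to 2971), 49.1 ppm in TR1 (43.4 to 55.2) and 51.1 ppm in TR9 (45.1 to 57.7). These and all other intervals cover counting error only, and with 1 library per group no difference has a replicate check. In such bulk libraries, fewer cells of a type and less RNA per cell cannot be told apart. By FPKM, which scales counts for transcript length, Col1a1 was the highest in control and ranked 199 of 15302 listed genes. Col1a2 ranked 250, Bglap 272 and Sparc 472. The order in control was Col1a1, Col1a2, Bglap, Sparc, Bglap2, Dcn, Cxcl12, Lum, Lepr and Col3a1. Neighbors in this order had overlapping counting intervals only between Col1a2 and Bglap, between Cxcl12 and Lum, and between Lepr and Col3a1.

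**Figure D1:**
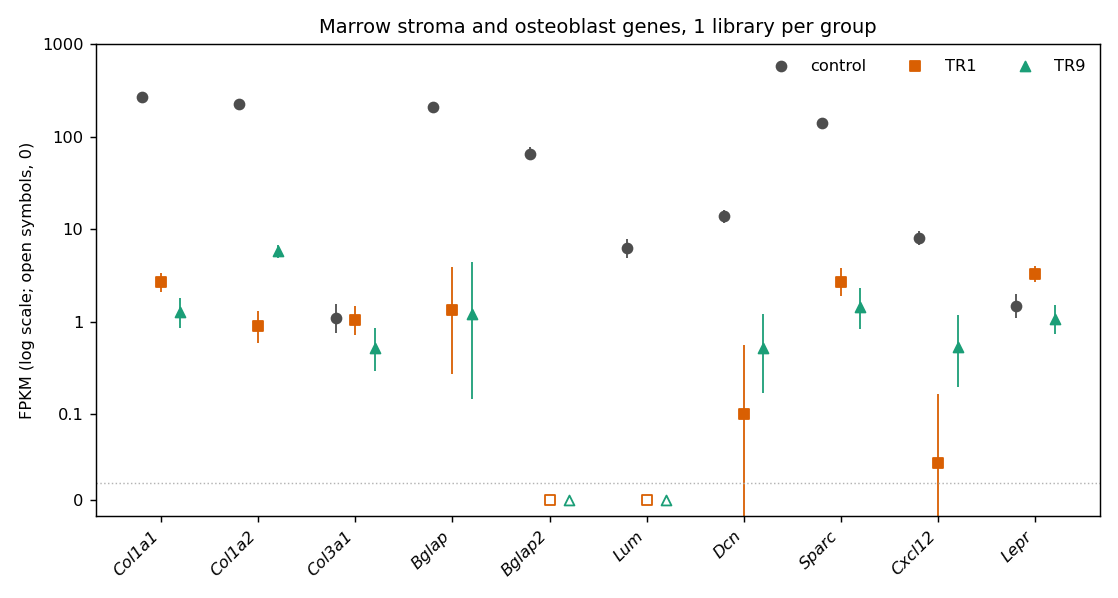
FPKM (log scale) of the 10 stroma and osteoblast genes in the control, TR1 and TR9 libraries. Bars are 95% exact counting intervals, cut off at the lower edge of the axis, and open symbols mark genes at 0. Control lies far above both TR libraries for 8 genes, whereas Col3a1 and Lepr are between 0.52 and 3.29 FPKM in every library.

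Col1a1 and Col1a2 encode the chains of type I collagen, the main protein of bone matrix. Col1a1, on chromosome 11 from 94936224 to 94953042 (GRCm38, GENCODE M21), was assigned 6904 expected counts in control against 71 for TR1 and 31 for TR9, or 265 FPKM, 2.68 FPKM and 1.27 FPKM. It was 98.7-fold lower in TR1 than in control, a log2 ratio of -6.63 (95% interval -6.98 to -6.29), and 208-fold lower in TR9, a log2 ratio of -7.70 (-8.26 to -7.20). Control was high and both TR libraries were low. Col1a2, on chromosome 6 from 4504814 to 4541544, was assigned 6336 counts in control against 26 for TR1 and 155 for TR9, or 222 FPKM, 0.90 FPKM and 5.81 FPKM. Its log2 ratio was -7.95 in TR1 (-8.57 to -7.40) and -5.26 in TR9 (-5.50 to -5.03). The collagen chains thus had opposite orders in the TR libraries, with Col1a1 higher in TR1 and Col1a2 higher in TR9.

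In FPKM, Col1a1 was 1.19 times Col1a2 in control (95% interval 1.15 to 1.23), 2.98 times in TR1 (1.88 to 4.86) and 0.219 times in TR9 (0.144 to 0.323). Between the TR lines, Col1a2 was 6.48-fold higher in TR9 than in TR1, a log2 ratio of 2.69 (2.09 to 3.35), and Col1a1 was 2.11-fold lower, a log2 ratio of -1.08 (-1.73 to -0.45). The intervals of the chain ratio did not overlap between any of the 3 libraries. Col3a1, on chromosome 1 from 45311538 to 45349706, encodes type III collagen of soft connective tissue and vessel walls. It was assigned 34 counts in control against 33 for TR1 and 15 for TR9, or 1.10 FPKM, 1.05 FPKM and 0.52 FPKM. Its log2 ratio was -0.06 in TR1 (-0.80 to 0.67) and -1.08 in TR9 (-2.07 to -0.17). Unlike type I collagen, Col3a1 was low in all libraries, and Col1a1 was 241 times Col3a1 in control FPKM (172 to 348) but 2.55 times in TR1 (1.67 to 3.98) and 2.44 times in TR9 (1.28 to 4.87).

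Bglap and Bglap2 encode osteocalcin, a small bone matrix protein made by mature osteoblasts. Bglap, on chromosome 3 from 88383501 to 88384464, was assigned 472 counts in control against 3 for TR1 and 2 for TR9, or 209 FPKM, 1.33 FPKM and 1.22 FPKM. Its log2 ratio was -7.32 in TR1 (-9.60 to -5.76) and -7.79 in TR9 (-10.83 to -5.92). Bglap2, next to it on chromosome 3 from 88377736 to 88378699, was counted 159 times in control, or 65.5 FPKM, and was at 0 in TR1 and TR9. With 3 counts in place of 0, the gene lay at least 53.8-fold lower in TR1, and for TR9 the bound was at least 49.5-fold lower. Transcripts of Bglap and Bglap2 from GENCODE M21 were identical at 434 of 440 aligned bases (98.6%), and the counts of both genes in control were not whole, so RSEM had divided reads between similar sequences and the split between Bglap and Bglap2 is uncertain. The related gene Bglap3 was at 0 in every library, which is also uncertain, since 96.1% of the aligned bases of Bglap were identical in it. The sum of the osteocalcin genes does not depend on that split.

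Lum, Dcn and Sparc encode matrix proteins that bind collagen. Lum, lumican, on chromosome 10 from 97565128 to 97572703, was counted 71 times in control, or 6.24 FPKM, and was at 0 in TR1 and TR9. Lum thus lay at least 24.0-fold lower in TR1, and for TR9 the bound was at least 22.1-fold lower. Dcn, decorin, is its neighbor from 97479609 to 97518143 and was assigned 142 counts in control against 1 for TR1 and 5 for TR9, or 13.8 FPKM, 0.10 FPKM and 0.52 FPKM. Its log2 ratio was -7.17 in TR1 (-12.49 to -4.67) and -4.73 in TR9 (-6.38 to -3.47). Both proteoglycan genes were thus detected at moderate levels in control and at or near 0 in the leukemias. Sparc, osteonectin, on chromosome 11 from 55394500 to 55423183, was assigned 1773 counts in control against 35 for TR1 and 17 for TR9, or 140 FPKM, 2.72 FPKM and 1.44 FPKM. Its log2 ratio was -5.68 in TR1 (-6.21 to -5.20) and -6.61 in TR9 (-7.39 to -5.92). SPARC is also stored in platelets, and megakaryocyte genes moved in the same direction. All 15 of the list were lower in both lines, against 8.36% of all genes. Their sum was 2186 ppm in control, 34.2 ppm in TR1 and 31.6 ppm in TR9, and their part in the Sparc difference was not tested.

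Cxcl12 and Lepr are the signal and the receptor that define the perivascular reticular cells. Cxcl12, on chromosome 6 from 117168535 to 117181367, was assigned 122 counts in control against 1 for TR1 and 6 for TR9, or 8.09 FPKM, 0.03 FPKM and 0.54 FPKM. Its log2 ratio of counts was -6.95 in TR1 (-12.27 to -4.45) and -4.25 in TR9 (-5.72 to -3.09). RSEM gave Cxcl12 a length of 2738 bases in control and 5670 in TR1, so between these its FPKM differ by more than its counts. Lepr, on chromosome 4 from 101717404 to 101815352, went the other way in TR1. It was assigned 46.0 counts in control against 103 for TR1 and 30.9 for TR9, or 1.49 FPKM, 3.29 FPKM and 1.07 FPKM, with a log2 ratio of 1.14 in TR1 (0.63 to 1.68) and -0.47 in TR9 (-1.18 to 0.22). TR1 was the highest library for Lepr, and the interval of TR9 included 0. Lepr counts were not whole in any library. The ratio in TR1 fell short of a log2 ratio of 1 under TPM scaling, at 0.92, and with a pseudocount of 1 FPKM, at 0.78. The Lepr values thus did not follow Cxcl12, although both mark the same stromal cell.

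**Figure D2:**
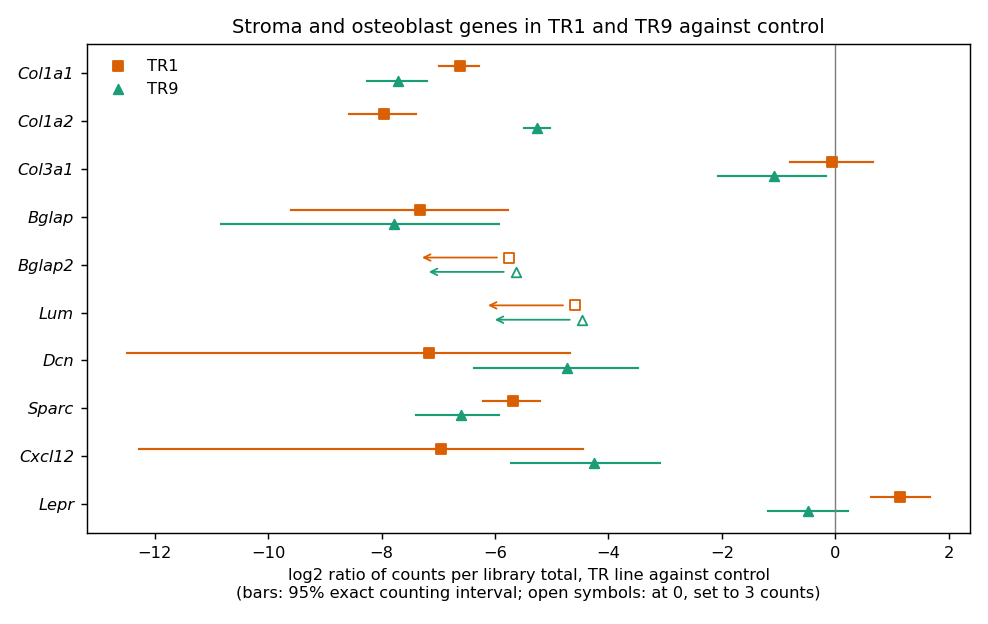
Log2 ratio of expected counts per library total in TR1 and TR9 against control for each of the 10 genes, with 95% exact counting intervals as bars. Open symbols with arrows are genes at 0, set to 3 counts. Of the 10 genes, 8 lie far below 0 in both lines, and Col3a1 and Lepr lie between -1.08 and 1.14.

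To set these values beside the whole transcriptome, genes were called by the study's thresholds, a false discovery rate of 0.001 or less in a Poisson test and a log2 ratio of 1 or more in size. The test compares the reads of 2 libraries, not the conditions. By this rule 8 of the 10 genes were lower in TR1 and 1, Lepr, was higher, against 13.0% lower and 8.11% higher of all 16282 genes tested. In TR9, 8 were lower and 0 were higher, against 10.8% and 9.37% of 16303 genes, and in both lines 8 were lower, against 8.36% of 16742 genes. Since the genes were selected on this contrast, nothing is read from these counts. With counts under 3 set to 3, their median log2 ratio came to -5.63 for TR1 and -4.99 for TR9, beside -0.28 and -0.12 over all genes tested. Scaling by TMM, which sets the bulk of genes level, added 0.25 to every log2 ratio in TR1 and 0.11 in TR9. It changed the split of all calls in TR1 from 2112 lower and 1320 higher to 1588 lower and 1695 higher.

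Further osteoblast genes were detected in control too, and several of them were at or near 0 in both TR lines. Of 24 further osteoblast lineage genes, control held 17 above 3 counts, TR1 held 9 and TR9 held 8. In TR1, 8 were lower and 2 higher, and in TR9, 8 were lower and 3 higher. Lower in both were 7 genes, Sp7, Alpl, Phospho1, Ibsp, Dmp1, Pth1r and Smpd3, and higher in both were Spp1 and Sgms2. Over the list, the median log2 ratio came to -1.53 for TR1 and -1.62 for TR9. Over all genes, 8.36% were lower and 5.66% higher in both lines. Some genes fell outside the rule for named genes and were chosen after their values were seen. These are Alpl, Sp7, Phospho1, Dmp1, Pth1r, Phex, Fgf23, Col5a3, Col6a3, Col16a1, Col18a1, Kitl and Pdgfrb.

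Ibsp, bone sialoprotein, had 168 counts in control and 1 in each TR library, or 15.7 FPKM, 0.09 FPKM and 0.10 FPKM. Alpl, the alkaline phosphatase that osteoblasts use to mineralize matrix, was assigned 29 counts in control and was at 0 in TR1 and TR9. Sp7, the osteoblast transcription factor osterix, was assigned 26 counts in control against 0 for TR1 and 1 for TR9. All of these were low in both leukemias. Dmp1, a matrix protein of osteocytes, was assigned 20 counts in control and was at 0 in TR1 and TR9, and Pth1r, the parathyroid hormone receptor, had 23, 0 and 2. Other osteocyte genes differed in detection, with Phex at 21.1 counts in control against 4.07 for TR1 and 2.03 for TR9, and Fgf23 at 3, 0 and 1. Sost and Mepe were at 0 in every library, and the exact counting interval of a gene at 0 reaches 0.719 ppm in TR9. Runx2, Spp1 and Sgms2 did not follow. Runx2 was assigned 385 counts in control against 454 for TR1 and 756 for TR9, with log2 ratios of 0.22 (0.02 to 0.42) and 1.07 (0.89 to 1.25). Spp1, osteopontin, which macrophages also secrete, rose from 155 counts to 534 (TR1) and 458 (TR9). Because of Runx2, Spp1 and Sgms2, the summed level of the list was lower in control, at 242 ppm, than in TR1, at 499 ppm, and TR9, at 916 ppm.

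**Figure D3:**
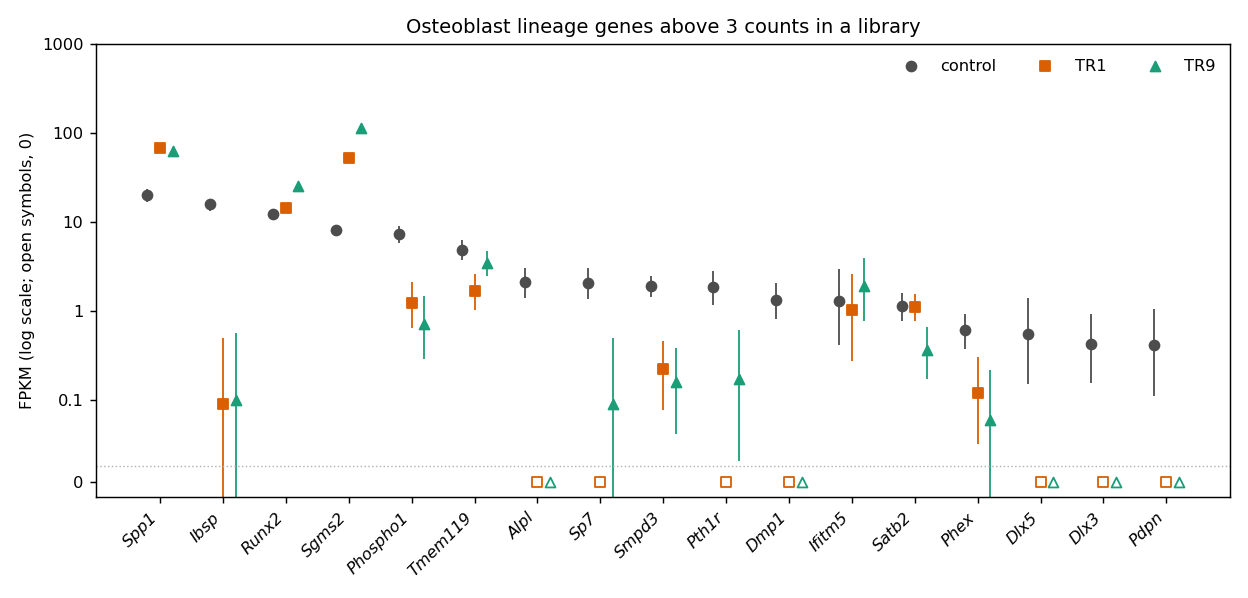
FPKM (log scale) of the osteoblast lineage genes above 3 counts in at least 1 library, ordered by their level in control. Bars are 95% exact counting intervals, cut off at the lower edge of the axis, and open symbols mark 0. Ibsp, Alpl, Sp7 and Dmp1 are at or below 0.10 FPKM in both TR libraries, whereas Spp1, Runx2 and Sgms2 are highest in a TR library.

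Other collagens followed type I collagen in part. All 20 further collagen genes were listed in control, where they summed to 300 ppm, against 64.6 ppm in TR1 and 62.2 ppm in TR9. Of these, 8 were lower in each line and 7 in both, beside 8.36% of all genes in both. Among the 7 were the type V chains Col5a1 and Col5a2 and the type XI chain Col11a1. Their products assemble into fibrils with type I and type II collagen. Col11a1 was assigned 359 counts in control against 0 for TR1 and 1 for TR9, and Col5a1 had 375, 16 and 4. Not all chains were low in the leukemias. Col6a3 rose from 18 counts to 149 (TR1) and 59 (TR9), and Col18a1 from 4 to 55 and 26, so that both genes were higher in both lines. Col16a1 had 12, 9 and 121 counts and the type V chain Col5a3 had 6, 14 and 47, and these were higher in TR9 only. Among 24 genes of collagen processing, 6 were lower in both lines, including Bmp1, which trims procollagen, and Lox, which cross-links it, and 3 were higher in both. Bmp1 was assigned 114 counts in control against 2 for TR1 and 4 for TR9, and Lox had 52, 1 and 3. P4hb, a protein folding enzyme of all secretory cells that also serves collagen hydroxylation, was at 371 FPKM in control, 679 FPKM in TR1 and 558 FPKM in TR9. The proteoglycan Bgn, biglycan, of the family of Lum and Dcn, was assigned 214 counts in control against 1.54 for TR1 and 1.04 for TR9, and was the 1 of 11 family members that was called in either line. Omd, the highest of the 11 in control at 21.4 FPKM against 16.3 FPKM for Bgn, had 205, 377 and 245 counts. Its log2 ratio was 0.86 in TR1 (0.61 to 1.11) and 0.35 in TR9 (0.08 to 0.63). Of 24 other matrix genes, 2 were lower and 2 higher in both lines, close to the 8.36% and 5.66% of all genes. Fn1, fibronectin, rose from 335 counts to 4407 (TR1) and 1268 (TR9).

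Genes of the reticular cells other than Cxcl12 and Lepr gave a mixed picture. Of 25, 16 were above 3 counts in control, and Adipoq, Grem1 and Chrdl1 were at 0 in every library. In both lines 4 were lower and 2 higher, beside 8.36% and 5.66% of all genes. In TR9, 5 were lower and 5 higher, beside 10.8% and 9.37% of all genes. Kitl, among the 5 higher in TR9, had 17 counts in control against 13 for TR1 and 118 for TR9. Pdgfrb, also among the 5, had 146, 273 and 950 counts. Angpt1, a ligand of the TIE2 receptor that stem cells and megakaryocytes make as well, was assigned 662 counts in control against 3 for TR1 and 29 for TR9. Igfbp4, which binds insulin-like growth factors, had 1269, 231 and 157 counts. Against these stood Vcam1, an adhesion molecule also found on macrophages, which rose from 471 counts to 3139 and 5110, and Thy1, which rose from 34 to 1634 and 742. The 25 genes summed to 597 ppm in control, 1041 ppm in TR1 and 1499 ppm in TR9. The sum was thus not higher in control. Vcam1 and Thy1 made up most of it in TR1 and TR9, so it does not measure reticular cells alone.

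Receptors for the products of these genes were measured in all libraries. Cxcr4, the receptor of CXCL12, had 60.0 FPKM in control, 99.9 FPKM in TR1 and 210 FPKM in TR9. Its log2 ratio was 0.74 in TR1 (0.59 to 0.89) and 1.81 in TR9 (1.68 to 1.95), so that it was called higher in TR9. Dpp4, a peptidase that inactivates CXCL12, fell from 197 counts to 2 (TR1) and 7 (TR9). Of 12 collagen and matrix receptor genes, 3 were lower in both lines, namely Itga2, Gp6 and Cd36, which platelets use, and Ddr1 was higher in both. The shares over all genes were 8.36% lower and 5.66% higher.

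Genes of other marrow cell types also differed between the libraries. Of 18 endothelial genes, 6 were lower in both lines, against 8.36% of all genes. They included the sinusoidal genes Stab2, with 114 counts in control against 0 for TR1 and 2 for TR9, and Plvap, with 90, 1 and 1. Flt1 and the sum of the list, at 103 ppm in control, 231 ppm in TR1 and 369 ppm in TR9, went the other way. Of 14 marrow macrophage genes, 11 were lower in both lines, with C1qa at 104, 4 and 2 counts, although Vcam1 brought their sum to 408 ppm in control against 657 ppm in TR1 and 1149 ppm in TR9. Lists of tissue that adjoins marrow or bone had low sums in control. They held 19.7 ppm for pericytes and smooth muscle, 11.1 ppm for cartilage, 40.1 ppm for adipocytes and 19.4 ppm for skeletal muscle. In both lines, Col2a1 of cartilage, Synpo2 and Abcc9 of pericytes and smooth muscle, Fabp4 of adipocytes and Mylpf of muscle were lower. Col2a1 was assigned 49 counts in control against 2 for TR1 and 1 for TR9, and Synpo2 had 36, 0 and 0. Cnmd of cartilage and Cfd of adipocytes were higher in both lines. Of 10 osteoclast genes, 5 were above 3 counts in control, with a sum of 366 ppm that was mostly Itgb3, an integrin gene also used by platelets, and Dcstamp and Ocstamp were at 0 in every library. The part of these cell types in the differences above was not tested.

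Lists of tissues outside the marrow were set beside these. Of 15 hepatocyte genes, 0 were above 3 counts in control and 10 were at 0 in every library, and they summed to 0.924 ppm in control (0.296 to 2.13). Of 15 neuronal genes, 4 were above 3 counts in control, with Camk2a the highest and a sum of 22.05 ppm, and 15 epithelial genes summed to 57.7 ppm, of which Cdh1, which erythroid progenitors also express, held most with 231 counts. The highest gene of each of these lists in control was Apoa2 at 0.74 FPKM, Camk2a at 2.86 FPKM and Cdh1 at 9.46 FPKM, and for skeletal muscle it was Mylpf at 7.23 FPKM. Ibsp, at 15.7 FPKM, lay above all of these. Alpl at 2.09 FPKM, Sp7 at 2.07 FPKM, Pth1r at 1.85 FPKM and Dmp1 at 1.32 FPKM lay below Camk2a, Mylpf and Cdh1. Among the 10 stroma and osteoblast genes, Lepr at 1.49 FPKM and Col3a1 at 1.10 FPKM did so too. Lum at 6.24 FPKM lay below Mylpf and Cdh1, and Cxcl12 at 8.09 FPKM lay below Cdh1. Camk2a was itself higher in both lines, at 71.4, 448 and 419 counts, and Mylpf, at 29, 4 and 1, and Cdh1 were lower in both. Camk2a, Mylpf and Cdh1 therefore do not set a background level, and whether the low stroma and osteoblast genes stand above one was not tested.

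**Figure D4:**
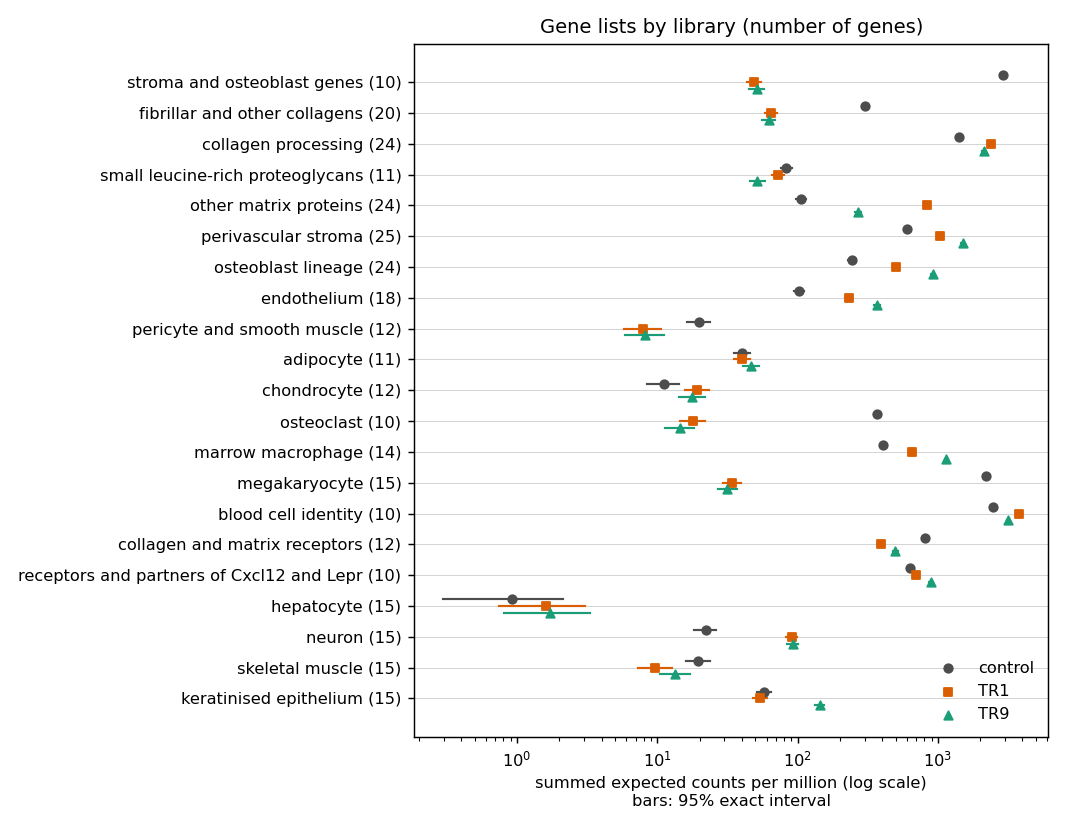
Summed expected counts in ppm of each library total (log scale) for the 10 stroma and osteoblast genes and the other gene lists, with the number of genes in brackets and 95% exact intervals as bars. The 10 genes and the megakaryocyte list are far higher in control than in TR1 and TR9, whereas the hepatocyte list is near 1 ppm in all libraries.

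Absence from both leukemias was not particular to stromal genes. Of 13163 genes above 3 counts in control, 386 (2.93%) were at 0 in both TR libraries, and Bglap2 and Lum were 2 of them. The 5 such genes with the highest FPKM in control were Pf4 at 375, Bglap2 at 65.5, Kel at 43.8, Tspo2 at 37.9 and Treml1 at 37.7. Of these, Pf4 and Treml1 are platelet genes and Kel is a red cell antigen gene.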

How the data were processed

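RNA was measured in 3 libraries, 1 per group, grouped by their sample titles. The authors kept the reads left after filtering and placed them on the genome by means of BWA and Bowtie. Gene levels then came from RSEM, and the submitters' processing notes name the build mm9. They deposited the expected count of each gene, which is an estimate, is not normalized and need not be whole, and the FPKM, which RSEM scaled for transcript length and library total. Versions are not given in the sources used here. Of 16742 NCBI Gene IDs, 16698 were named through the RefSeq table of GRCm38.p6, and coordinates are of GRCm38 (GENCODE M21), since the files hold none.

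The genes and lists were chosen with earlier results of these data known. Expected counts were rounded and compared with a two-sided conditional exact Poisson test (scipy 1.17.1) and Benjamini-Hochberg adjustment over genes listed in either library. Log2 ratios are of counts per library total, with counts under 3 set to 3 for calls and medians. A gene with 1 to 3 counts is printed with its own ratio and interval. Named genes were the 10 genes, the 3 of highest control FPKM in each of 20 lists, the 3 of largest mean change among those called in both lines, and the 5 highest genes at 0 in both TR libraries. The text gives some of these. In counts simulated for TR1 (16282 genes) and TR9 (16303 genes), 192 and 189 of 200 genes changed by a log2 ratio of 2 were called, and 0 unchanged genes. The simulated counts varied by counting error alone, as the test assumes, and genes of low count were not among those changed. The simulation therefore cannot show how often the rule errs when mice or libraries vary. Alternatives used edgeR 4.0.16 in R 4.3.3. Python 3.11.15, numpy 2.4.6, pandas 2.3.3, matplotlib 3.10.9 and biopython 1.88 were used.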

Additional observations from a re-analysis of the deposited data

Results flagged for a closer look

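Among genes named by rule, Tie1 and Coro1a had ratios to control of opposite sign in the leukemias, each beyond its counting interval, and the difference between the lines was not tested. In the lists, 6 further genes did so, namely Ptprc, Cd48, Lpl, Itga1, Runx1 and Csf1. Tie1, an endothelial receptor, was assigned 115 expected counts in control against 16 for TR1 and 311 for TR9. Its log2 ratio to control was -2.87 for TR1, with a 95% interval of -3.72 to -2.11, and 1.53 for TR9, with an interval of 1.22 to 1.85. Coro1a, an actin-binding protein of leukocytes, was assigned 918, 2187 and 538 counts in the same order, and its log2 ratio was 1.23 for TR1 and -0.67 for TR9.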

How the results depend on the processing

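With 1 library per group, no replicate could be left out. No paired analysis was possible because each group holds 1 library. Of 100 log2 ratios of the 10 genes under the 5 alternative scalings, floors and pseudocounts, 2 changed sign, both for Col3a1 in TR1, whose interval included 0 (range -0.29 to 0.19). Another 10 left their counting interval, all toward 0 with a pseudocount of 1 FPKM, among them Lum at -2.86 in both lines and, in TR1, Dcn at -3.75 and Cxcl12 at -3.14. Lepr in TR1 ranged from 0.78 to 1.40, under the log2 ratio of 1 that a call needs with TPM scaling (0.92) and with that pseudocount (0.78). For genes at 0 the FPKM floor of 0.01 went the other way, down to -12.68. With edgeR's exact test at an assumed variation of 0.2, calls over all genes fell to 992 lower and 657 higher in TR1 and to 830 lower and 717 higher in TR9. The same test called 2 collagens and 1 osteoblast gene higher in TR9. For collagens, lower calls rose to 15 in TR1 and 14 in TR9 by fold alone and to 13 in TR1 at a false discovery rate of 0.05, and 2 were higher in TR9 with a pseudocount of 1 FPKM. Against totals without the 100 most abundant genes, which removes Col1a1 and Col1a2 in control, the 10 genes made up 610 ppm in control, 63.8 ppm in TR1 and 63.4 ppm in TR9. As a share of summed FPKM they made up 2073, 23.0 and 25.5 ppm. With at least 4 counts required, 5 of the 10 genes were detected in TR1 and 8 osteoblast lineage genes in TR9. Of 648 other list counts, 588 stayed within 1.5 times. Depth limits what can be said of genes at 0, whose exact counting interval reaches 0.719 ppm in TR9.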
